A study of Mus musculus with 12 samples.

Results

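The genes Svopl, Cdhr1, Trh, Eras, Prap1, Mep1b and Apela, which lie outside the core pluripotency network, were followed across mouse fetal testes that lacked or carried Dmrt1. They are 7 of 18193 genes with a named probe set on the array and were picked for their large rises in Dmrt1 knockout testes of the 129Sv strain. All 7 also passed the filter on low values, which left 12726 genes. In 129Sv knockouts every one of them reached an intensity of 67.3 or more on every array. In B6 knockouts Svopl, Trh, Prap1, Mep1b and Apela rose by less, and Cdhr1 and Eras did not pass the test. The B6 call held in 26 of 27 alternative analyses for Mep1b and in 11 of 27 for Apela. For Mep1b the exception set values below a log2 of 4 to 4, and the log2 difference fell from 1.87 to 0.32. All B6 wild-type arrays of Mep1b lay below that level, where values carry little signal. Alternatives that left out a 129Sv array did not change the B6 difference of Mep1b.

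Testes were taken at E15.5, in mid to late gestation, per the sample labels, and total RNA was hybridised to 12 Affymetrix arrays. There were 3 arrays each of 129Sv Dmrt1 knockout, 129Sv wild type, B6 Dmrt1 knockout and B6 wild type. The labels' growth protocol names P28 in place of the embryonic stage, and the series text calls the deletion conditional without naming a Cre driver or the cells that lost the gene. The labels do not say that arrays come from separate animals, so the spread behind each p-value may be technical. Because whole testes were profiled, more cells of a type and more RNA per cell cannot be told apart.

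Dmrt1 encodes a DM domain transcription factor of fetal germ cells and Sertoli cells. Mice of 129 strains are known for testicular teratomas, which begin in fetal germ cells that return to a pluripotent state. The 7 genes have varied roles. Trh encodes the precursor of thyrotropin-releasing hormone, a hypothalamic peptide that stimulates the pituitary. Apela encodes a peptide hormone of the early embryo that signals through the apelin receptor and is known in zebrafish for the formation of endoderm and heart. Eras encodes a Ras-like protein of embryonic stem cells that activates PI3 kinase and is known for the growth of tumours from those cells. Svopl encodes a putative membrane transporter related to synaptic vesicle proteins. Cdhr1 encodes a cadherin-related protein of photoreceptors. Mep1b encodes the beta subunit of meprin, a metalloprotease of kidney and intestinal brush borders, and Prap1 encodes a secreted proline-rich protein of epithelia.

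Dmrt1 itself was low in the knockouts. It measured 173, 145.3 and 181 on the 129Sv knockout arrays, against 1183, 924 and 1014 on the 129Sv wild-type arrays. In B6 it measured 86.4, 64.0 and 72.9 in knockouts, against 795, 1092 and 1066 in wild types. The Actb ratio, 3′ over 5′ probe set, which rises with RNA degradation, was 6.30 on B6 knockout replicate 3, 5.24 on 129Sv knockout replicate 1 and 3.91 on 129Sv wild-type replicate 2. It lay between 1.99 and 2.79 on the other 9 arrays. Sample titles end in a number whose meaning the sources used here do not state, 1 to 3 for the knockouts of B6, 4 to 6 for its wild types and 7 to 12 for 129Sv. Were it a processing order, it could not be told apart from genotype within B6, nor from strain over all arrays. Titles begin with another number, which the B6 knockout and wild type of replicate 1 share, as do those of replicate 2. With it as a random block, 5 of the 7 genes passed in B6, where 1166 of 12726 genes were called, against 1005 without it. A further title number, before the strain code, is 7 on all 129Sv knockouts and on wild-type replicate 2, and 11 on the other 129Sv wild types. With it as a covariate, the median 129Sv difference of the 7 genes was 3.60, against 3.77 without it. That fit drops B6 wild-type replicate 3, whose title has no such number. Since the other 129Sv wild types carry 11, its 129Sv difference sets the knockouts against wild-type replicate 2 alone. The 3.60 thus rests on 1 wild-type array, whose Actb ratio was 3.91.

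Promoters were available from RefSeq (build GRCm38.p6, a C57BL/6J genome) for 6 of the 7 genes, as windows of 250 bases before and 50 after the start of the gene, and Mep1b is named only. The 250 upstream bases of 3 of them are shown, Eras for the one match to a DM-type motif, and Trh and Prap1 for the range of CpG content among genes that moved together. Letters in capitals mark the motif in Eras and CpG pairs in Trh and Prap1. Eras lies at chrX:7928608-7928857 on the minus strand, Trh at chr6:92244651-92244900 on the minus strand and Prap1 at chr7:140093146-140093395 on the plus strand.
Eras: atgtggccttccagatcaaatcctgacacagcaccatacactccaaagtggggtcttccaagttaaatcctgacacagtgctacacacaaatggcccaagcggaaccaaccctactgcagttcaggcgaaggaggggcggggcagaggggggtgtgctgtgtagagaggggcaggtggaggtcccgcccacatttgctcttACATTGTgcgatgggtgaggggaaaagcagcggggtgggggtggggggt
Trh: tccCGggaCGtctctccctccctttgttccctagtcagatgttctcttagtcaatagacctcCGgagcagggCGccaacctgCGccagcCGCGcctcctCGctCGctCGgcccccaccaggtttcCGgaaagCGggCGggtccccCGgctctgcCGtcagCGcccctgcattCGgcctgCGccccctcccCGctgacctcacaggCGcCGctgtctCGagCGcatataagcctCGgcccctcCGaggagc
Prap1: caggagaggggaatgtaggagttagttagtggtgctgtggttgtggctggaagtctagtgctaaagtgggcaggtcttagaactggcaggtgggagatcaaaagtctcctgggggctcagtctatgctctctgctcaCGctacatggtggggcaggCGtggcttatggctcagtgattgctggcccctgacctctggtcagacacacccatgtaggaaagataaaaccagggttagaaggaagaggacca

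The motif ACAATGT, searched on both strands with its reverse complement ACATTGT, contains the core of the DM domain consensus and overlaps the SOX motif ACAATG. It was found in 1 of the 6 promoters, that of Eras, and in 2.97% of 32851 promoters of the same length. The octamer ATTTGCAT (1.74% of all promoters), the OTX-type motif GGATTA (7.06%) and TATAAA (13.6%) were in none of the 6 windows, and the SOX-type motif ACAAAG (18.7%) was in Trh and Apela. The Trh window held 28 CpG pairs, an observed-to-expected ratio of 0.876. The other 5 windows held 4 to 9 CpG pairs with ratios between 0.189 (Prap1) and 0.413 (Cdhr1), and the median over all promoters was 7 pairs and a ratio of 0.384. A match is a description of letters in the window.

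The first comparison was knockout with wild type in 129Sv, on which the genes were chosen, so its values are given as a description. Among the 12726 genes ordered by log2 difference in 129Sv, the 7 held ranks 3 to 6 and 8 to 10. Gdf3, a TGF-beta family gene of pluripotent cells, held rank 7 at 3.69. The last of the 7 was Apela at 3.53, and Tdgf1, of the pluripotency list, followed at 3.45. In each of the 7 genes the lowest knockout array lay above the highest wild-type array in 129Sv, an arrangement found in 14.2% of all tested genes, while 4.07% of tested genes were called higher in 129Sv knockouts, 4.24% lower and 8.31% either way.

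Among the peptide hormone genes, Trh measured 219.8, 231.5 and 110.1 in 129Sv knockouts, against 12.1, 9.75 and 9.08 in 129Sv wild types. The third knockout array was the lowest of its group and still above all 129Sv wild types. The log2 difference was 4.12 ± 0.29 (SE, n = 3 per group). Wild-type levels lay below an intensity of 16, a log2 of 4, under which values carry little signal, so the fold is given against 16 and was at least 11.1. Apela measured 172.2, 167.6 and 156.1 in knockouts and 12.4, 14.8 and 16.1 in wild types of 129Sv. Its knockout arrays were the most alike of the 7 genes, with an SD of 0.07 on the log2 scale. The log2 difference was 3.53 ± 0.36, a fold of at least 10.3.

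Eras measured 520.1, 389.3 and 332.9 in 129Sv knockouts and 26.0, 36.3 and 28.1 in 129Sv wild types. It was the one gene of the 7 with all wild-type arrays above 16, so its fold of 13.7 was measured on both sides (log2 difference 3.77 ± 0.48). The Eras and Svopl probe sets are of the x_at type, which Affymetrix assigned where probes may match other transcripts, and no other probe set named either gene.

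Among the membrane protein genes, Svopl measured 319.1, 599.9 and 262 in 129Sv knockouts and 15.8, 17.97 and 13.9 in 129Sv wild types. The second knockout array stood above the other two, and the SD of its group was 180.9 around a mean of 393.7 (n = 3). The log2 difference was 4.54 ± 0.43, a fold of at least 23.0. Cdhr1 measured 319.5, 244.2 and 217.2 in knockouts and 10.8, 14.9 and 11.0 in wild types. Its log2 difference was 4.41 ± 0.27, a fold of at least 16.1. Mep1b, the protease gene, measured 98.7, 67.3 and 120.0 in knockouts and 7.45, 7.64 and 7.05 in wild types, a log2 difference of 3.65 ± 0.25 and a fold of at least 5.79.

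Prap1 measured 98.0, 143.4 and 83.8 in 129Sv knockouts and 7.55, 10.8 and 7.02 in 129Sv wild types, a log2 difference of 3.67 ± 0.28 and a fold of at least 6.60. A second Prap1 probe set, also of the x_at type, measured 47.1, 85.2 and 45.3 in knockouts and 6.63, 9.11 and 5.84 in wild types, with the same array highest in each group. The second Apela probe set stayed between 3.58 and 9.78 on all 6 arrays of 129Sv, below 16, and so gave no usable level.

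**Figure D1:**
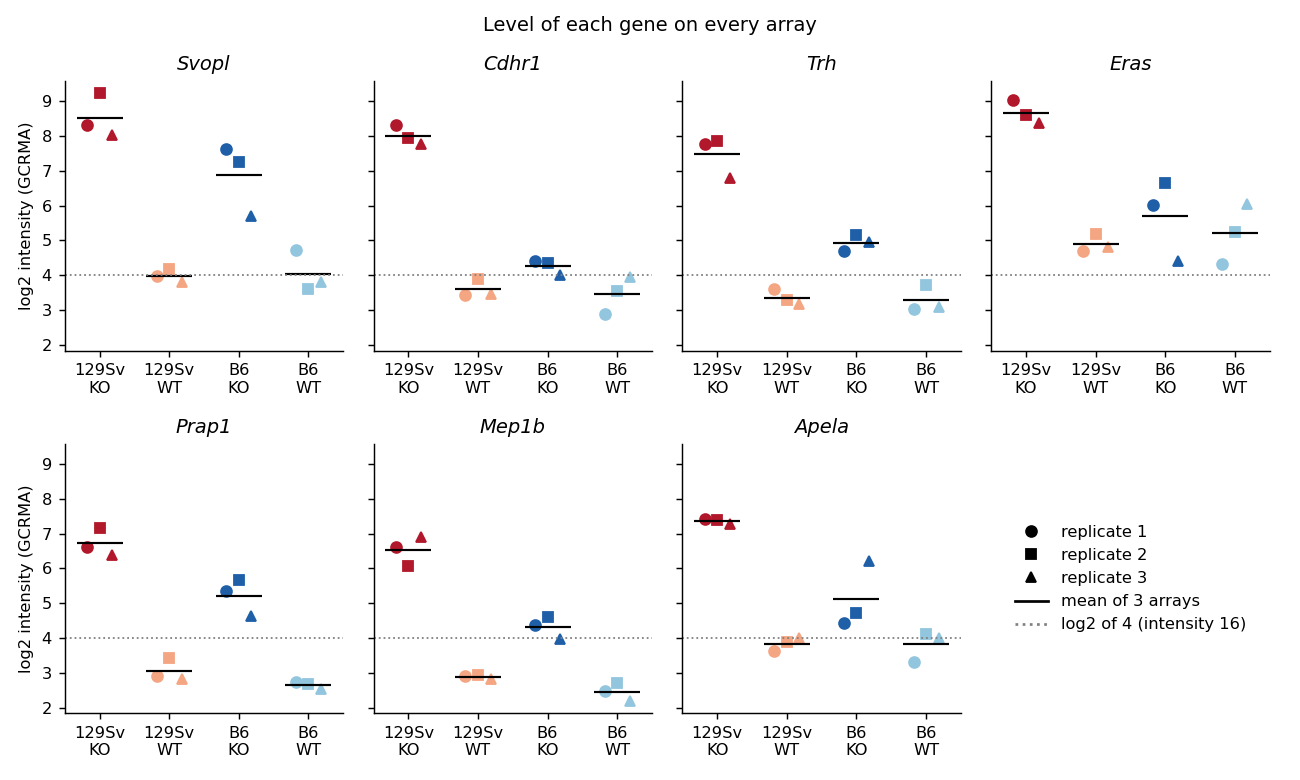
Log2 intensity (y axis) of the 7 genes on each of the 12 arrays, in 129Sv knockout (KO), 129Sv wild type (WT), B6 KO and B6 WT. Points are arrays, bars are means of 3 arrays and the dotted line is a log2 of 4; every 129Sv knockout array lies above every array of the other 3 groups for each gene.

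The comparison in B6 used arrays on which the genes were not chosen, and asked whether the same genes were higher without Dmrt1 in another strain. The genes were, however, chosen with earlier results of these data known. The fit also drew its spread from all 4 groups, so the 129Sv arrays entered the B6 p-values, SEs and intervals. For genes that varied more in B6 than in 129Sv, as Eras, Svopl and Apela did, these SEs and intervals may be too narrow. In the limma fit over all 12726 genes, 5 of the 7 rose and 2 did not pass, where 2.45% of all tested genes were called higher, 5.45% lower and 7.90% either way. The median log2 difference of the 7 was 1.65, against 0.03 over all tested genes. In 6 of the 7 genes the lowest knockout array lay above the highest wild-type array, against 14.3% of all tested genes. Outside the 129Sv knockouts, Cdhr1, Trh and Prap1 reached an intensity of 16 on B6 knockout arrays only, and Mep1b on 2 of those, so the filter itself favoured genes high in knockouts. With no filter, 5 of the 7 passed as well, where 1013 of 18193 genes were called. In a fit of only the 2 B6 groups, 490 of 12726 genes were called. There 4 of the 7 passed, and Apela did not (limma adjusted p = 0.136).

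Svopl measured 198.2, 153.1 and 52.5 in B6 knockouts and 26.2, 12.2 and 14.1 in B6 wild types. The third knockout array was far below the other two and above all wild types. Its log2 difference of 2.82 ± 0.43 (limma adjusted p = 0.000967) was a rise, but 2 of the 3 wild-type arrays lay below 16, and with values below a log2 of 4 set to 4 it was 2.63. Prap1 measured 40.7, 51.2 and 24.6 in B6 knockouts and 6.59, 6.43 and 5.80 in B6 wild types, and its log2 difference of 2.57 ± 0.28 (limma adjusted p = 7.88e-05) passed. Its wild types lay far below 16, so the fold was at least 2.32 and the log2 difference with that floor 1.21. The second Prap1 probe set measured 18.7, 18.03 and 14.2 in knockouts and 6.13, 6.54 and 5.69 in wild types, again without overlap. Its knockout values lay around 16 and its wild types below it, where values carry little signal.

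Trh measured 25.7, 35.9 and 30.8 in B6 knockouts and 8.12, 13.3 and 8.46 in B6 wild types. All knockout arrays stood above 16 and all wild types below, and the rise was at least 1.91-fold (log2 difference 1.65 ± 0.29, limma adjusted p = 0.00238). Mep1b measured 20.5, 24.4 and 15.8 in B6 knockouts and 5.54, 6.47 and 4.54 in B6 wild types, a log2 difference of 1.87 ± 0.25 (limma adjusted p = 0.000285). The knockout values lay close to 16, so the fold was at least 1.246, and with values below a log2 of 4 set to 4 the call ended (0.32, adjusted p = 0.352). With that floor 3 of the 7 genes passed in B6, namely Svopl, Trh and Prap1, where 732 of 12726 genes were called.

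Apela measured 21.6, 26.2 and 73.4 in B6 knockouts and 10.0, 17.3 and 15.98 in B6 wild types. The third knockout array was the highest, unlike its place for Svopl, Prap1 and Mep1b. The rise passed (log2 difference 1.30 ± 0.36, limma adjusted p = 0.0382) but ended without B6 knockout replicate 3, at 0.76 with an adjusted p of 0.0786. That array has the highest Actb ratio, 6.30, and with the ratio as a covariate the log2 difference was 0.85 with a limma adjusted p of 0.22. It stayed past the threshold in 11 of 27 alternatives, with adjusted p between 0.0128 and 0.22.

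Cdhr1 measured 21.3, 20.3 and 16.2 in B6 knockouts and 7.39, 11.6 and 15.4 in B6 wild types. The groups did not overlap, but the highest wild-type array lay close to the lowest knockout array. The log2 difference was 0.80 ± 0.27 and did not pass (limma adjusted p = 0.0812; unadjusted 95% interval 0.23 to 1.37). Eras measured 64.7, 100.5 and 21.2 in B6 knockouts and 19.9, 37.6 and 66.7 in B6 wild types. These groups overlapped, with the third knockout array near the bottom and the third wild-type array above the first knockout. On the log2 scale the SD was 1.16 in B6 knockouts and 0.87 in B6 wild types, against 0.33 and 0.25 in those of 129Sv. With the spread shared by all groups, the log2 difference was 0.49 ± 0.48 (limma adjusted p = 0.545; unadjusted 95% interval -0.53 to 1.51). Single arrays moved this value widely: it was 0.0095 without knockout replicate 2, 0.33 without knockout replicate 1, 0.05 without wild-type replicate 1, 0.92 without wild-type replicate 3 and 1.13 without knockout replicate 3, and none of these passed. Array weights brought both past the threshold (Cdhr1 0.82, adjusted p = 0.0224; Eras 1.07, adjusted p = 0.0487), and no other alternative did.

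**Figure D2:**
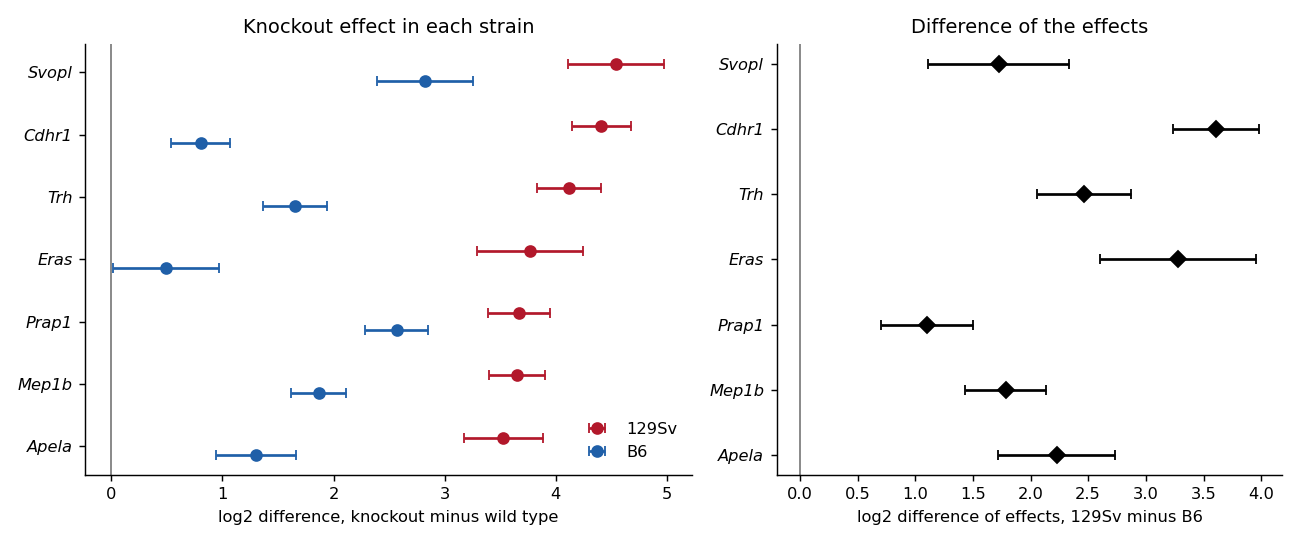
Left, log2 difference of knockout minus wild type (x axis) for each gene in 129Sv and in B6; right, 129Sv effect minus B6 effect. Points are limma estimates and bars are SE; the genes were chosen on the 129Sv values, which lie between 3.53 and 4.54, and the B6 values lie between 0.49 and 2.82.

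The difference of the knockout effects, 129Sv minus B6, was positive for all 7 genes. Since the 129Sv arrays chose the genes, which favours large 129Sv values, these differences are a description without a test. The difference was 3.61 ± 0.38 for Cdhr1 and 3.28 ± 0.68 for Eras. It was 2.46 ± 0.41 for Trh and 2.23 ± 0.51 for Apela, the hormone genes. It was 1.78 ± 0.35 for Mep1b, 1.72 ± 0.61 for Svopl and 1.10 ± 0.40 for Prap1. With values below a log2 of 4 set to 4, the B6 differences were 2.63 for Svopl, 1.21 for Prap1, 1.08 for Apela, 0.93 for Trh, 0.49 for Eras, 0.32 for Mep1b and 0.26 for Cdhr1.

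The strains were also set side by side within each genotype, as a description. Within knockouts, the log2 level in 129Sv minus that in B6 was 3.75 ± 0.27 for Cdhr1 at the upper end and 1.51 ± 0.28 for Prap1 at the lower end. The 129Sv arrays lay above the B6 arrays without overlap for 7 of the 7 genes, which their choice on the 129Sv arrays favours (25.0% of all tested genes). Within wild types the difference lay between -0.30 (Eras) and 0.43 (Mep1b), but for 5 genes both strains had mean levels below 16 there. Mep1b and Prap1 were higher in 129Sv wild types without overlap, against 26.6% of all tested genes, but all 12 of those values were below 16. For each gene the order of group means was 129Sv knockout, then B6 knockout, then the wild types, whose arrays overlapped except for those 2 genes. The step between B6 knockout and B6 wild type did not pass for Cdhr1 and Eras.

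**Figure D3:**
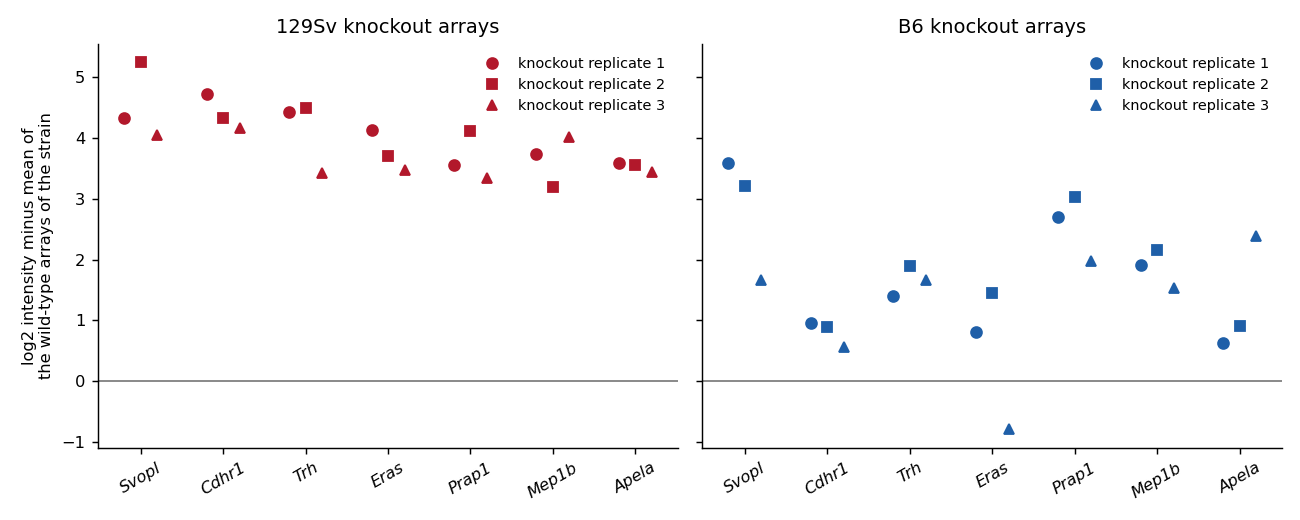
Log2 intensity of each knockout array minus the mean of the wild-type arrays of its strain (y axis) for the 7 genes, 129Sv on the left and B6 on the right. The 129Sv points lie between 3.19 and 5.25; in B6, replicate 3 is the lowest of its group for 5 genes, is the highest for Apela and lies below 0 for Eras.

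The knockout arrays of B6 differed in which genes were high. Relative to the B6 wild-type mean, the median of the 7 genes was 1.41, 1.89 and 1.67 on knockout replicates 1, 2 and 3, and the range on replicate 3 was -0.80 (Eras) to 2.39 (Apela). In 129Sv the medians were 4.13, 4.11 and 3.48. Pairs of the 7 genes correlated over all 12 arrays with Pearson's r between 0.82 and 0.98 (median 0.92, 21 pairs), which rests on the groups they were chosen on. Over the 6 B6 arrays r ranged from -0.09 for Eras with Apela to 0.99 for Prap1 with Mep1b (median 0.72). These correlations are descriptions over arrays that share the knockout contrast.

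By correlation over the 12 arrays, the genes nearest to each of the 7 were found among all tested genes. Nearest to Svopl were Prap1, Ap3b2 and Siglecf (r between 0.97 and 0.98), and nearest to Prap1 were Ap3b2, Eomes and Otx2 (r = 0.99 each). Otx2, a homeobox gene of the epiblast, measured 115.6, 135.5 and 49.95 in B6 knockouts and 8.03, 17.3 and 7.87 in B6 wild types, the same order of knockout arrays as Prap1. Nearest to Cdhr1 were Fbxo15, Pdzk1 and Cbr3 (r = 0.99 for Fbxo15). Fbxo15, an F-box gene of embryonic stem cells, measured 1772, 1861 and 2257 in 129Sv knockouts and 368, 462 and 363 in 129Sv wild types, and its log2 difference was 2.30 ± 0.17 in 129Sv and 0.61 ± 0.17 in B6. Nearest to Trh were Th, Khdc3 and Eomes, to Eras Frat2, Igsf3 and Cdhr1, to Mep1b Pdzk1, Ddx58 and Mtg1, and to Apela Crabp2, Mcf2 and Mei4, with r between 0.96 and 0.98. Of the 18 genes found, 16 were outside the 7. Every 129Sv knockout array lay above all other arrays for 17 of the 18, and Siglecf was the exception. This follows from their choice by correlation, over the same arrays, with genes picked for 129Sv knockout values, and is a description only.

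Genes that work with the 7 were looked up in lists of receptors, processing enzymes and relatives. In the list for thyrotropin-releasing hormone, no gene of 5 tested rose in either strain. The receptor genes Trhr and Trhr2, the degrading enzyme gene Trhde and the prohormone convertase gene Pcsk1 were below 16 on all 12 arrays. Qpct, whose enzyme forms the modified first residue of the hormone, fell in B6, with 18.2, 22.8 and 15.46 in knockouts and 43.2, 99.0 and 68.8 in wild types (log2 difference -1.84 ± 0.27, limma adjusted p = 0.000579). In 129Sv Qpct measured 25.0, 30.2 and 34.0 in knockouts and 53.5, 48.0 and 52.5 in wild types. That difference did not pass (-0.80 ± 0.27, limma adjusted p = 0.0835), nor did the difference between the strains (limma adjusted p = 0.193). Tshb, a pituitary target of the hormone, was called lower in both strains, at levels mostly below 16: 8.26 to 10.2 in 129Sv knockouts and 15.8 to 23.5 in 129Sv wild types, and 5.92 to 6.48 in B6 knockouts and 8.59 to 18.4 in B6 wild types. Aplnr, the receptor for Apela, was measured at 3308 to 3490 in 129Sv knockouts and 3018 to 3198 in 129Sv wild types, a log2 difference of 0.14 ± 0.12 that did not pass (limma adjusted p = 0.608).

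No gene passed limma's test in either strain among 6 of the apelin receptor list, where 1 in 129Sv and 2 in B6 had an unadjusted p under 0.05. None passed among 12 tested genes of Ras and PI3 kinase signalling, the pathway on which Eras acts, where 1 in 129Sv and 2 in B6 had an unadjusted p under 0.05. Relatives of the 7 were mostly below 16. Svop, the nearest relative of Svopl, and Sv2b and Sv2c were below 16 on all 12 arrays, as was Mep1a, which encodes the alpha subunit that pairs with the product of Mep1b. Of 8 cadherin-related genes and disc partners, 5 were below 16 on all arrays. Prom1, whose protein binds that of Cdhr1 in photoreceptors, measured 217.2, 284.2 and 335.8 in B6 knockouts and 129.6, 238.0 and 167.2 in B6 wild types, which overlapped (log2 difference 0.67 ± 0.22, limma adjusted p = 0.0818). No tested gene of the SV2, meprin or cadherin-related lists passed in either strain, with 0 at an unadjusted p under 0.05 in 129Sv and, in B6, 0, 1 and 2 of 2, 1 and 3 tested genes.

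Pluripotency and epiblast genes, a list without the 7, were mixed. Of 24 tested genes, 17 rose, 1 fell (Klf4) and 6 did not pass in 129Sv, and 12 rose, 3 fell (Klf4, Tfcp2l1 and Dppa4) and 9 did not pass in B6. The median log2 difference of that list was 1.76 in 129Sv and 0.75 in B6, against -0.01 and 0.03 over all tested genes. For the 7 genes it was 3.77 and 1.65, where the 129Sv value follows from their choice. The list was drawn up with earlier results known and is not independent evidence of its direction.

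Markers of other cell types were compared on the same arrays. General germ cell genes had a mean log2 level of 9.75 to 9.94 in 129Sv knockouts, against 9.24 to 9.26 in 129Sv wild types. In B6 that level was 8.39 to 8.95 in knockouts and 8.96 to 9.12 in wild types, groups that did not overlap but nearly met. Of the 12 tested germ cell genes, 4 rose and none fell in 129Sv, namely Rnf17, Sohlh2, Prdm1 and Dppa3, and 3 rose and 4 fell in B6. Those that fell in B6 were Gtsf1 (-2.62), Dnd1 (-1.43), Taf7l (-1.31) and Mael (-0.96 on the log2 scale), with limma adjusted p between 7.7e-06 and 0.0022. Ddx4, the germ cell helicase gene, differed by 0.02 ± 0.15 in 129Sv and by -0.46 ± 0.15 in B6, and Dazl by 0.41 ± 0.20 and -0.13 ± 0.20, and none of these passed (limma adjusted p between 0.0855 and 0.958). B6 knockout replicate 3 had the lowest germ cell level of all 12 arrays (8.39) and the highest fetal Leydig cell (11.6) and macrophage (6.31) levels. The part of germ cell content in the rise of the 7 genes was not tested.

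Tissues in which several of the 7 genes are known were looked for through their markers. The intestinal genes Cdx2, Fabp1, Fabp2, Apoa4, Cdh17 and Alpi, 6 of 9 measured, were below 16 on all 12 arrays, and Vil1 was called lower in 129Sv knockouts. The photoreceptor genes Crx, Nrl, Rcvrn, Prph2 and Gnat1, 5 of 8 measured, were below 16 on all arrays. Pde6b measured 69.9, 69.0 and 62.7 in 129Sv knockouts and 19.96, 23.3 and 17.5 in 129Sv wild types and rose (log2 difference 1.74 ± 0.24, limma adjusted p = 0.000281), while Sag, of the same list, was called lower. Among mesonephros and kidney genes, Slc34a1 and Umod were below 16 on all arrays. Lhx1, a homeobox gene of the embryonic kidney, rose in both strains (3.40 in 129Sv, limma adjusted p = 0.00088, and 2.41 in B6, adjusted p = 0.0126). Pax8 fell in 129Sv, and Cubn fell in both. Neuronal genes had a mean log2 level of 5.20 to 5.40 in 129Sv knockouts and 4.72 to 4.87 in 129Sv wild types. In B6 it was 4.94 to 5.39 in knockouts and 4.48 to 4.90 in wild types, so it was higher in knockouts without overlap in both strains, narrowly in B6. Tubb3, a neuronal tubulin gene, rose in B6 (1.08, limma adjusted p = 0.0079), and Th rose in both, while Elavl3 and Chgb were below 16 on all arrays. The neuronal mean covers 5 tested genes, which did not all move alike. In 129Sv, Syt1 (-0.23) and Chga (-0.19) were lower in knockouts without passing, and Tubb3, Th and Stmn2 were higher. Snap25, which was not tested, measured 4.72 to 8.40 in 129Sv knockouts and 14.4 to 16.8 in 129Sv wild types. The part of neural or kidney cells in the rise of the 7 genes was not tested. Th, the tyrosine hydroxylase gene and the nearest gene to Trh, measured 42.6, 30.1 and 28.8 in 129Sv knockouts and 9.90, 9.03 and 7.00 in 129Sv wild types. Its values in B6, 12.3 to 12.8 in knockouts and 6.67 to 8.16 in wild types, were below 16.

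No gene of the fetal Leydig cell (6 tested), interstitial and peritubular (6), endothelial (7) or macrophage (7) lists passed limma's test in either strain. At an unadjusted p under 0.05 these lists had 2, 0, 2 and 0 genes in 129Sv and 1, 0, 2 and 0 in B6. Of 12 Sertoli cell genes, 2 fell in each strain and none rose. Of 6 tested visceral endoderm genes, 1 rose and 2 fell in 129Sv, and none rose and 2 fell in B6.

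**Figure D4:**
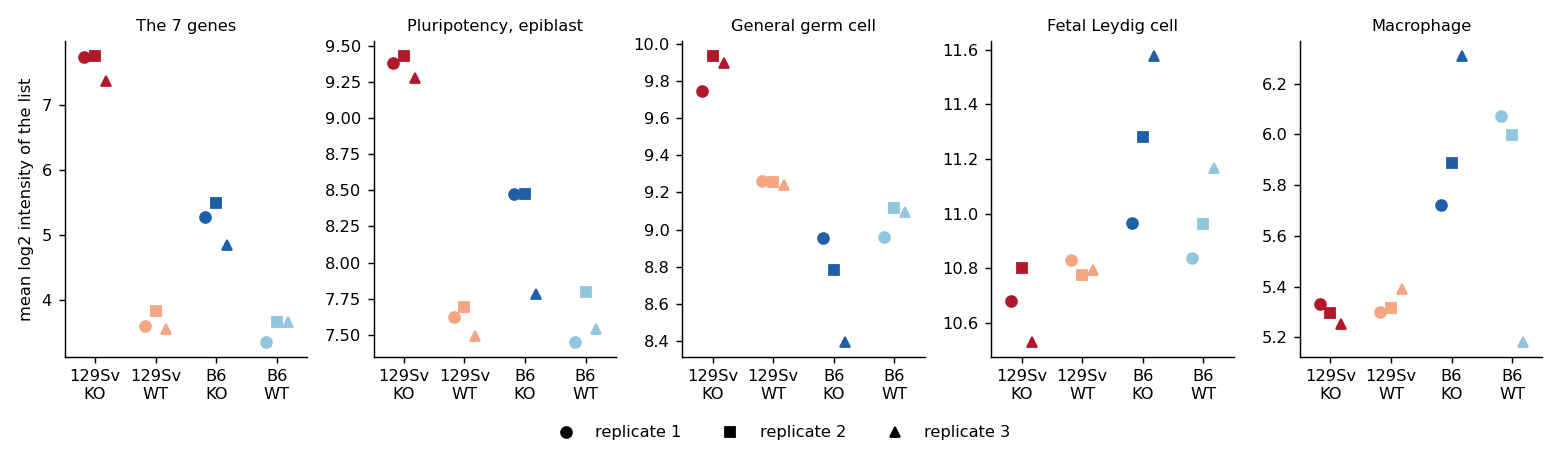
Mean log2 intensity (y axes, each with its own scale) on each array of the 7 genes and of 4 lists: pluripotency and epiblast (24 genes), general germ cell (12), fetal Leydig cell (6) and macrophage (7). Points are arrays in 129Sv knockout (KO), 129Sv wild type (WT), B6 KO and B6 WT; on B6 knockout replicate 3 (triangle) the germ cell level is the lowest and the Leydig and macrophage levels are the highest of 12 arrays.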

How the data were processed

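The authors deposited linear intensities per probe set, made with GCRMA, per the submitters' processing notes, which give no version. Array medians lay between 17.3 and 19.0, and log2 was taken here. Platform annotation, updated through Entrez identifiers, gave 34958 of 45101 probe sets 1 gene, 932 several and 9211 none. Control probe sets were left out. Each of 18193 genes kept its probe set of highest mean, and 12726 reached a log2 of 4 on at least 3 arrays. Means of the 4 groups were fitted with limma 3.58.1 in R 4.3.3 (eBayes with trend), with Benjamini-Hochberg adjustment over 12726 genes and a threshold of 0.05. Data of 12726 genes were simulated with normal noise, each gene having 1 spread for all 4 groups, and changes were added to the B6 knockouts. There, 20% of changes of 0.5 (log2), 76% of those of 1 and 100% of those of 2 and 4 were recovered, with 4.5% false calls. These shares may not hold for genes whose spread is larger in B6 knockouts than in other groups. Named genes are the 7, Dmrt1, members of 18 gene lists and, for each of the 7, the 3 genes of highest correlation. The 7 genes and the lists were chosen with earlier results of these data known. Arrays have no depth in counts, and their number, 3 per group, limits precision. Alternatives covered filters, probe set rules, scaling, a floor, array weights, blocks, covariates and arrays left out. Replicate numbers did not pair the arrays: deviations of same-numbered arrays correlated between -0.47 and 0.01. The first number of the titles, shared by both genotypes in B6 replicates 1 and 2, was tried as a random block.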

Additional observations from a re-analysis of the deposited data

Results flagged for a closer look

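The knockout effect differed between the strains, by limma's test of 129Sv minus B6 adjusted over 12726 genes, for 11 of 120 genes, Dmrt1 and the tested genes of the lists; over all genes 167, or 1.31%, passed. The lists were chosen with earlier results known. The 7 genes, and Fbxo15, Otx2 and Th, named for their correlation with them, were left out because their choice used the same arrays. Dmrt1 differed by 1.08 ± 0.24 (log2, adjusted p = 0.045), having fallen by 2.64 in 129Sv and by 3.72 in B6.

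In the pluripotency list the difference was 2.91 ± 0.41 for Zfp42 (adjusted p = 0.00314), 2.14 ± 0.40 for Lin28a (0.0208), 1.91 ± 0.18 for Dnmt3b (0.000227), 1.79 ± 0.35 for Sox2 (0.0257) and 1.67 ± 0.31 for Nanog (0.0208). In the germ cell list it was 2.54 ± 0.31 for Gtsf1 (adjusted p = 0.0012) and 1.53 ± 0.25 for Taf7l (0.0101), both of which fell in B6. In the visceral endoderm list it was 2.24 ± 0.44 for Afp (adjusted p = 0.0259), which fell in both strains, and 1.31 ± 0.27 for Rhox5 (0.0345). Pde6b, of the photoreceptor list, differed by 1.47 ± 0.34 (adjusted p = 0.0479). Its B6 values lay around 16, at 13.05 to 20.9 in knockouts and 10.9 to 18.4 in wild types. The differences of Dmrt1 and the listed genes were not rerun with values below 16 set to 16. Nor were they rerun without B6 knockout replicate 3, whose Actb ratio was 6.30.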

How the results depend on the processing

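The median 129Sv difference of the 7 genes stayed between 3.47 and 3.92 over 27 alternatives. The genes were chosen on this contrast, so the range is a description. Filters, blocks and single B6 arrays left out did not change the median from 3.77. The median 129Sv difference was 3.60 when the title number before the strain code entered as a covariate. That fit is without B6 wild-type replicate 3, which has no such number, and in 129Sv it sets the knockouts against wild-type replicate 2 alone. The median difference of effects stayed between 1.78 and 2.51 over 26; the lowest, 1.78, came from the mean of a gene's probe sets, which averages Apela and Prap1 with dimmer ones. The B6 rises of Svopl, Prap1 and Trh passed in all 27, that of Mep1b in all but the floor, and that of Apela in 11. The count of the 7 called higher in B6 was 3 with values below a log2 of 4 set to 4, 7 with array weights, and 4 or 5 otherwise, with 4 under the Actb ratio as a covariate and, in an alternative chosen after seeing the data, without both B6 knockout replicate 3 and 129Sv knockout replicate 1. The replicate block, a pairing the numbers did not bear out, left 5 of the 7 called in B6, with 838 genes called in all against 1005 without it. Genes called in B6 were 2166 with array weights, 490 with only the compared groups, 618 with the Actb ratio and 399 with the title number and so 1 B6 array fewer; with single arrays left out they ranged from 430 (without B6 wild-type replicate 3) to 1273, with 631 without B6 wild-type replicate 2. Genes called in 129Sv were 1058, but 696 with a filter at a log2 of 6, 2092 with array weights and 353 with the title number; with single arrays left out they ranged from 596 (without 129Sv knockout replicate 2) to 1561, with 652, 607 and 623 without knockout replicate 1 and wild-type replicates 1 and 3. The cause of these changes was not tested. No direction reversed for any of the 7 genes, which in 129Sv their choice on those arrays favours. Signal near background limits Cdhr1, Mep1b, Trh and Apela in B6.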
